A study of Homo sapiens with 10 samples.

Results

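The transcripts of definitive endoderm (DE), the embryonic layer from which gut, liver and pancreas form, were set against those of the human embryonic stem cells (hESC) it was made from. DE was made from WA09, an established hESC line, over 4 days on matrigel in DMEM/F-12, seeded at 50000 cells per cm2. Its medium held 100 ng/mL activin A and 8 ng/mL FGF, and for day 1 alone 25 ng/mL Wnt-3a. The hESC were WA09 cells seeded alike for 4 days in a medium that held IGF-I (200 ng/mL) and heregulin (10 ng/mL) besides activin A (10 ng/mL) and FGF (8 ng/mL). The DE medium therefore had more activin and no IGF-I or heregulin. Each of the 2 had 2 libraries, which makes 4 of the series' 10, and nothing in the labels says that they were separate cultures. All come from 1 cell line.

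The authors deposited 1 FPKM value per gene and cell type (fragments scaled to transcript length and to the mapped total), with the 2 libraries combined. How far the libraries of a cell type differ, and how deep they were, is therefore unknown. Genes were taken from chromosomes 1 to 22 and X with at least 1 FPKM in DE or in hESC. This left 13411 of 22337 symbols, and 15 of these were set aside because their deposited FPKM and test statistic conflicted in at least 1 of the 4 derivative tables, which left 13396. Just inside the minimum was MAP2 with 1.00 FPKM in DE and 0.505 in hESC, and just outside it CACNB2 with 0.725 in DE and 0.9997 in hESC. A difference is log2(FPKM + 1) of DE minus that of hESC, which understates the change of low genes, and a gene is called 2-fold higher or lower where it is at least 1 or at most -1. Rose and fell are kept for genes whose q-value in the authors' deposited table was below 0.05. In bulk RNA, fewer cells of a type and less RNA per cell cannot be told apart.

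In the embryo, definitive endoderm forms at the primitive streak under NODAL, a ligand that activin A stands in for in culture. High NODAL signalling, with WNT, switches on EOMES and then SOX17, GATA factors and FOXA2, while the secreted antagonists LEFTY and CER1 hold NODAL back. The forming layer also changes its adhesion, its basement membrane and the ligands it sends to the neighbouring mesoderm and neural plate.

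The 4 defining markers rose. EOMES, the T-box factor at the top of the endoderm programme, was at 158 FPKM in DE and 1.85 in hESC. CXCR4, the receptor for CXCL12 by which endoderm is often sorted, was at 176 FPKM in DE and 2.28 in hESC. SOX17, a high-mobility-group factor that fixes endoderm fate, was at 141 FPKM in DE and 2.71 in hESC, and GATA6, a zinc-finger factor of early endoderm, at 104 in DE and 1.44 in hESC. On the log2 scale these are differences of 5.80, 5.75, 5.26 and 5.42, each with q = 0.0186 in the authors' deposited table, the lowest q it holds. The labelled cell type and the markers point the same way.

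Of 24 transcription factors of endoderm and the anterior streak, 21 passed the minimum. Of these 18 were 2-fold higher in DE, none was 2-fold lower, and the median difference was 3.73, against 7.22% of all genes 2-fold higher and a median of 0.05. In hESC 9 of the 21 lay under 1 FPKM, and these could enter only by being higher in DE. By q, 7 rose (0.433% of all genes tested): the 3 factors above, GATA4 (56.1 FPKM in DE, 0.846 in hESC), LHX1, a head organizer factor (39.2 in DE, 1.18 in hESC), PRDM1, a repressor of the early endoderm (17.8 in DE, 0.379 in hESC), and OTX2, a factor of anterior endoderm and neural plate (177 in DE, 17.1 in hESC). FOXA2, the forkhead factor that opens endodermal enhancers, was at 35.2 FPKM in DE and 1.27 in hESC, with q = 0.0545 in the authors' deposited table, just short of the threshold. GSC, the organizer homeobox factor, was at 83.8 in DE and 0.776 in hESC, with q = 0.239 in the authors' deposited table.

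Several other members are known from later gut and liver. HHEX, needed for liver and thyroid buds, was at 27.6 FPKM in DE and 1.16 in hESC. HNF4A, a hepatocyte nuclear receptor, was at 12.9 in DE and 0.184 in hESC. FOXA3 was at 19.2 in DE and 11.3 in hESC. FOXA1 and ISL1 stayed below 1 FPKM in both cell types. SOX7, a relative of SOX17 found in extraembryonic endoderm, was at 0.488 in DE and 1.09 in hESC. MIXL1, a streak homeobox factor, was listed at 57.4 in DE and 1.88 in hESC, but its statistic was too small for that ratio and its level is uncertain.

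To show what stands in front of genes that rose, the 250 bases before the transcription start of 4 of them are printed, 5′ to 3′ on the gene's strand, from the RefSeq promoter table (GRCh38.p14, a later build than the hg19 of the deposited tables). They are EOMES (chr3:27722324-27722573, minus strand), CXCR4 (chr2:136118150-136118399, minus strand), CER1 (chr9:14722734-14722983, minus strand) and CYP26A1, a retinoic acid hydroxylase (chr10:93073643-93073892, plus strand). CXCR4 has 3 listed starts and CYP26A1 has 2, of which 1 each is shown. Capitals mark the motif letters searched on both strands: TATAAA, which marks the core of some promoters, AGATAA for the zinc-finger factors named above, TGTNNATT for FOXH1, the DNA partner of SMADs, AGGTGTGA for T-box factors, and ATTGTT for SOX factors. Overlapping matches run together.
EOMES: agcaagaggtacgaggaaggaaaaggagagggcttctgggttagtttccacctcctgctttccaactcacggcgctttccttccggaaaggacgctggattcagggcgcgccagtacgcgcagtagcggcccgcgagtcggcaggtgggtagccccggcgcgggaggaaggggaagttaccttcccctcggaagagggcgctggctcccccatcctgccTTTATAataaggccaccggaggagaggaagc
CXCR4: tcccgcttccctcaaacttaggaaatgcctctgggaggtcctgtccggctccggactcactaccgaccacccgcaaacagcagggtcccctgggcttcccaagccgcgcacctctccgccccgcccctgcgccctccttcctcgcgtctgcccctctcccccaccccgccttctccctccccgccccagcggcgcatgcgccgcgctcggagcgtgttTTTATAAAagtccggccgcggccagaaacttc
CER1: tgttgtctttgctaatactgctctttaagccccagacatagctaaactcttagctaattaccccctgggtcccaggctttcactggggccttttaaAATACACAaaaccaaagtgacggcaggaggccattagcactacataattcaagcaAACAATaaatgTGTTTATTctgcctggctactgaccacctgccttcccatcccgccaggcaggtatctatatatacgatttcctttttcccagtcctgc
CYP26A1: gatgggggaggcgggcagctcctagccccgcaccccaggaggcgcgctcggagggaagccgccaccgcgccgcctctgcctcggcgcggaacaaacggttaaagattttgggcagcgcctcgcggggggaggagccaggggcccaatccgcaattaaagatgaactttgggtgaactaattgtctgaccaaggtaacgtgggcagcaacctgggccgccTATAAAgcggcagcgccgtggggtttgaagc

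TATAAA or its reverse complement lies 31 bases before the start of EOMES and of CYP26A1 and 30 and 32 bases before that of CXCR4, where the matches on the 2 strands overlap. The CER1 stretch holds 2 matches to TGTNNATT, the nearer 88 bases before the start, and 1 to ATTGTT at 99 bases. None of the 4 holds AGATAA or AGGTGTGA. The table held 37 of the 60 symbols behind the 58 loci that rose, with 48 starts. TATAAA occurred in 8 of these 48 stretches (16.7%), against 10.7% of 34961 listed starts. TGTNNATT occurred in 6 of 48 (12.5%), against 9.88% of all starts, AGATAA in 5 (10.4%), against 9.18%, and ATTGTT in 4 (8.33%), against 8.95%. Starts of the same gene count separately, and the 6 with TGTNNATT belong to CER1, CXCR4, OTX2 and PRDM1 alone. AGGTGTGA was in none of the 48 and in 0.789% of all. These are matches of letters in a short window and say nothing of binding.

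Over all 13396 genes, 967 (7.22%) were 2-fold higher in DE and 611 (4.56%) 2-fold lower, with a median difference of 0.05. In hESC 260 of the 967 lay under 1 FPKM, and in DE 208 of the 611. Levels were called uncertain for 823 genes (6.14%) that had not passed q and had either no statistic or one too small for their ratio. Without these, 856 (6.81%) of 12573 were 2-fold higher and 511 (4.06%) 2-fold lower. With at least 1 FPKM in hESC as well, 664 (5.48%) of 12126 were 2-fold higher and 511 (4.21%) 2-fold lower. With at least 1 FPKM in both columns and uncertain levels kept, 707 (5.8%) of 12180 were 2-fold higher and 403 (3.31%) 2-fold lower. All of the 25 lowest differences were of uncertain level, many of them small nucleolar and micro RNAs, which poly(A) selection captures poorly. RHOT1, a mitochondrial GTPase used by most cells, was listed at 398 FPKM in DE and 0 in hESC, while another row of the gene held 17.7 in DE and 20.1 in hESC. KCNQ1, a potassium channel, was listed at 0 in DE and 521 in hESC, and at 0.579 in DE and 0.918 in hESC in its other row.

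**Figure D1:**
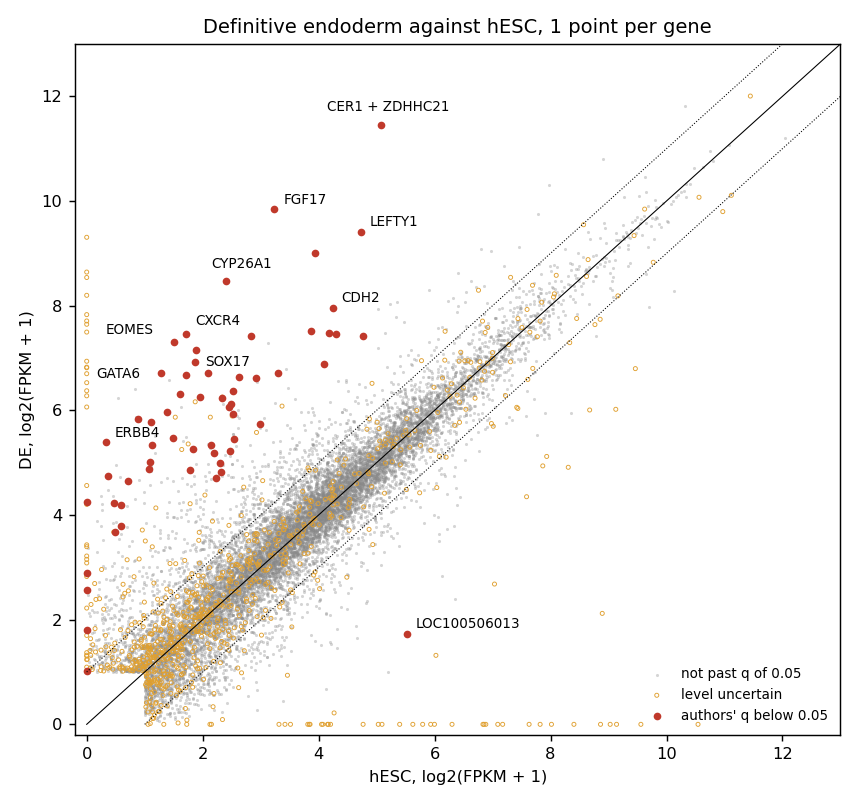
Levels of 13396 genes in DE (vertical axis) and hESC (horizontal axis), both as log2(FPKM + 1), 1 point per gene; the solid line marks equal levels and the dotted lines a difference of 1. Red points are the genes with the authors' q below 0.05, of which 58 lie above the line and 1 below, and open points are uncertain levels, many of them listed at 0 on an axis.

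By q, 58 loci rose (0.433%) and 1 fell (0.00747%) of 13385 tested, with 20 of the 58 above 100 FPKM in DE. At an unadjusted p below 0.05 in the authors' deposited table, 503 of the 13385 were higher in DE and 192 lower. With no difference at all, a share of 0.05 of the tested genes would be expected below that p. Both directions together lie near that share, but the higher count is well above the lower one. These counts alone therefore do not settle whether further genes changed. Among the 58 the difference was largest for FGF17 and smallest for HTR1E, a serotonin receptor listed at 1.02 FPKM in DE and 0 in hESC. MYL4, LYPD2, MSMB and GYPE were also listed at 0 in hESC, and no fold is given for these 5. The gene that fell was LOC100506013, a locus on chromosome 4. It was at 2.31 FPKM in DE and 45.0 in hESC, a difference of -3.79, with q = 0.0389 in the authors' deposited table.

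**Figure D2:**
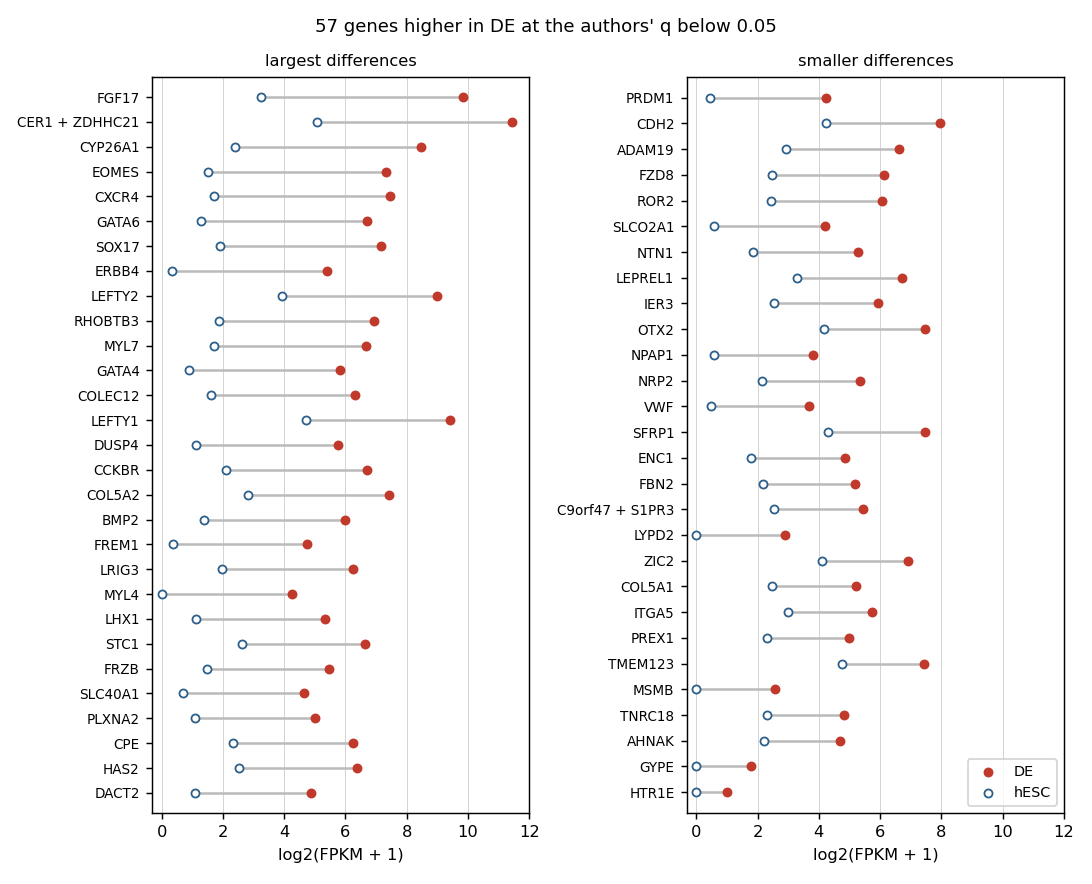
Levels of 57 of the 58 loci that rose at the authors' q below 0.05, sorted by difference from the top left to the bottom right. Filled circles give DE and open circles hESC as log2(FPKM + 1), and a line joins the 2 values of a locus; FGF17 has the longest line and HTR1E the shortest.

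The hESC values of the DE table need care for low genes. The 4 derivative tables each carry an hESC column, and over 12943 genes with a value in all 4 the median range between them was 0.27 on the log2 scale, with 312 genes (2.41%) ranging over 1 or more. Of the loci that rose, 43 had at least 1 FPKM in hESC and a value in every table, and in 28 of these (65.1%) the DE table held the highest hESC value, against 3905 of 12392 genes (31.5%) overall. The DE table was also highest in hESC for 353 of 694 genes 2-fold higher in DE (50.9%) and for 301 of 583 2-fold lower (51.6%). EOMES in hESC spanned 0.943 to 1.85 FPKM over the 4 tables and SOX17 1.24 to 2.71, with the DE table highest for both. FOXA2 spanned 0.583 to 1.27 and GSC 0.372 to 0.776, again with the DE table highest. The GSC locus is 1.9 kb long in the DE table and 3.6 to 8.8 kb in the others, so its values are not over the same stretch. The part of the DE table's hESC values in the differences was not tested beyond putting the other tables' hESC columns in their place.

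Secreted factors were read in 9 lists. Of 153 measured members, which are ligands, antagonists, hormones and plasma proteins, 51 (33.3%) were 2-fold higher in DE and 19 (12.4%) 2-fold lower, against 7.22% and 4.56% of all genes, and 8 rose by q. Members under 1 FPKM in hESC passed only by being higher in DE; with at least 1 FPKM in both columns, 37 of 122 were 2-fold higher and 14 were 2-fold lower, against 5.8% and 3.31% of all genes so limited. CER1, which binds NODAL, BMP and WNT ligands, was deposited merged with its neighbour as CER1,ZDHHC21, outside these counts. That locus rose to 2796 FPKM in DE, against 32.8 in hESC, and the share of each gene cannot be told apart. LEFTY1 was at 682 in DE and 25.5 in hESC and LEFTY2 at 511 in DE and 14.3 in hESC. Both block the NODAL receptor complex, both rose (differences of 4.69 and 5.07), and as close copies of each other they may share reads.

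Of 26 measured NODAL, activin, GDF and BMP ligands and antagonists, 12 were 2-fold higher, 2 were 2-fold lower and 3 rose. BMP2, a BMP ligand, was the other one that rose besides the LEFTY genes, at 62.0 FPKM in DE and 1.60 in hESC. The ligand NODAL was at 59.5 in DE and 14.1 in hESC, and GDF3, a NODAL partner, at 43.4 in DE and 10.7 in hESC; neither passed q. Their co-receptor TDGF1 was at 245 in DE and 261 in hESC. TSKU, a small secreted antagonist of several ligands, was at 72.99 in DE and 11.02 in hESC, with q = 0.0804 in the authors' deposited table. The BMP antagonist NOG was at 3.49 in DE and 0.255 in hESC, while FST, which traps activin, was at 31.3 in DE and 8.92 in hESC. The stress cytokine GDF15 went the other way, with 3.82 in DE and 14.5 in hESC.

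Several WNT antagonists were higher in DE and others lower. Of 15 measured WNT ligands and secreted antagonists, 7 were 2-fold higher and 2 were 2-fold lower. FRZB rose (43.1 FPKM in DE, 1.81 in hESC), as did SFRP1 (176 in DE, 18.8 in hESC); both are soluble decoys built like the WNT-binding part of Frizzled receptors. DKK1 and DKK4, which block the co-receptor LRP6, were at 23.2 and 17.96 in DE, against 2.61 and 1.68 in hESC. NOTUM, which strips the lipid from WNT, was at 18.3 in DE and 3.04 in hESC. The ligand WNT3 was at 51.5 in DE and 12.4 in hESC. SFRP2, another decoy, was at 88.0 in DE and 158 in hESC. The secreted antagonists SFRP5 and WIF1 were also lower in DE, with test statistics of -2.35 and -1.83 in the authors' deposited table. None of DKK1, DKK4, NOTUM, WNT3, SFRP2, SFRP5 and WIF1 passed q.

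FGF ligands differed in both directions: of 9 measured, 2 were 2-fold higher and 3 were 2-fold lower. FGF17, known from the tail end and midbrain of the mouse embryo, rose to 916 FPKM in DE, against 8.44 in hESC, a difference of 6.602. Its locus in the DE table is 13.8 kb long, against 6.5 kb in the other tables, and whether reads from beside the gene are included was not tested. FGF8, its close relative, was at 30.6 in DE and 2.71 in hESC. FGF2, the factor that hESC make and need, was at 10.4 in DE and 66.1 in hESC, with q = 0.0512 in the authors' deposited table, and FGF4 at 1.44 in DE and 7.64 in hESC. FGF2 overlaps the antisense gene NUDT6, and without strand their reads cannot be told apart.

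Of 31 measured secreted growth factors of other families 7 were 2-fold higher and 4 were 2-fold lower, with a median of 0.18, and none passed q. HDGF, a heparin-binding growth factor, was at 254 FPKM in DE and 83.6 in hESC, and GAS6, a ligand of MERTK, at 29.5 in DE and 7.17 in hESC. The epidermal growth factor EGF was at 11.2 in DE and 2.95 in hESC. Lower in DE were the NOTCH ligand DLL1, at 0.754 in DE and 6.53 in hESC, and CTGF, a matrix-bound factor, at 11.8 in DE and 29.9 in hESC.

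Hormones, plasma proteins and guidance cues were read next. STC1, a secreted regulator of calcium and phosphate, rose to 98.4 FPKM in DE, against 5.20 in hESC, while its relative STC2 was at 3.35 in DE and 16.4 in hESC. NPPB, the precursor of a heart natriuretic peptide, was at 74.3 in DE and 0.448 in hESC without passing q, and NTS, neurotensin, at 113 in DE and 35.1 in hESC. Of 42 plasma proteins and apolipoproteins found, 11 reached 1 FPKM, and 6 of these were 2-fold higher. APOA2 was at 95.2 in DE and 1.67 in hESC, APOC1 at 315 in DE and 59.1 in hESC, and APOA1 at 13.4 in DE and 0.363 in hESC, all apolipoproteins of plasma lipoproteins, and complement C5 was at 19.7 in DE and 0.190 in hESC. The liver genes ALB, AFP and TTR were near 0 in both: ALB was at 0.128 in DE and 0.116 in hESC, AFP at 0.133 in DE and 0.167 in hESC, and TTR was listed at 0 in both.

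Of 29 guidance ligands 9 were 2-fold higher and 1 was 2-fold lower. NTN1, a netrin, rose to 37.5 FPKM in DE, against 2.58 in hESC. The semaphorins SEMA3E, SEMA5A and SEMA6D were at 23.7, 16.4 and 3.90 in DE, against 1.44, 2.45 and 0.381 in hESC; the hESC level of SEMA3E spanned 0.322 to 22.1 FPKM over the 4 tables, with the DE table's 1.44 in between. SEMA6A, the semaphorin with the highest level listed, was at 72.7 in DE and 127 in hESC. Of 8 chemokines 1 was 2-fold higher and 3 were 2-fold lower, with a median of -0.47. CCL2, which draws monocytes, was at 45.8 in DE and 4.76 in hESC, and CXCL12, the ligand of CXCR4, at 9.87 in DE and 30.3 in hESC. The insulin-like growth factor binder IGFBP6 was at 27.4 in DE and 3.30 in hESC, and IGFBP2 at 123 in DE and 144 in hESC.

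Of 175 measured receptors in 6 lists, 39 (22.3%) were 2-fold higher, 10 (5.71%) 2-fold lower, and 6 rose, against 7.22% and 4.56% of all genes by fold. With at least 1 FPKM in both columns, 26 of 143 were 2-fold higher and 8 were 2-fold lower, against 5.8% and 3.31% of all genes. ERBB4, a receptor tyrosine kinase for heregulin, rose to 41.0 FPKM in DE, against 0.252 in hESC, a difference of 5.07, in a medium to which no heregulin was added. Its dimer partners were nearer to level: ERBB2 was at 55.8 in DE and 41.1 in hESC, and ERBB3 at 12.8 in DE and 14.8 in hESC. The receptors for IGF-I and insulin, factors of which IGF-I was left out, were at 37.5 in DE and 21.0 in hESC for IGF1R, and at 8.15 in DE and 10.7 in hESC for INSR. Of 37 kinases 7 were 2-fold higher, among them MERTK (29.5 in DE, 5.42 in hESC), EPHA4 (12.005 in DE, 1.78 in hESC) and KIT (26.6 in DE, 9.13 in hESC), and FGFR2 and FLT1 were 2-fold lower. FGFR1, an FGF receptor, was at 68.7 in DE and 113 in hESC.

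WNT receptors were higher in part. Of 25 measured WNT receptors and surface regulators, 9 were 2-fold higher and none 2-fold lower. FZD8 (69.0 FPKM in DE, 4.58 in hESC) and ROR2 (65.8 in DE, 4.46 in hESC) rose. The FZD8 locus is 8.3 kb long in the DE table and 3.2 kb in the others. FZD5, the Frizzled with the highest level in DE, was at 260 in DE and 36.6 in hESC, with q = 0.0909 in the authors' deposited table, and the R-spondin receptor LGR5 at 21.3 in DE and 0.283 in hESC. FZD7, the highest in hESC, was at 130 in DE and 107 in hESC. The co-receptor LRP6 was at 20.7 in DE and 20.5 in hESC. Of the receptors for activin, TGF-beta and BMP, 3 of 13 were 2-fold higher and none lower: ACVR1B, the activin type I receptor, was at 12.6 in DE and 5.38 in hESC, BMPR2 at 22.7 in DE and 8.42 in hESC, and AMHR2 at 2.06 in DE and 0.143 in hESC.

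Among 50 measured G protein-coupled receptors, 8 were 2-fold higher and 6 were 2-fold lower, against 7.22% and 4.56% of all genes. Besides CXCR4, its relative CXCR7, which takes up the same ligand, was at 57.3 FPKM in DE and 0.797 in hESC, with q = 0.0512 in the authors' deposited table. CCKBR, the gastrin receptor, which the list lacks, rose to 103 in DE, against 3.27 in hESC. The merged locus C9orf47,S1PR3, which holds a receptor for a sphingosine phosphate, rose to 42.8 in DE, against 4.81 in hESC. Of 16 guidance receptors 5 were 2-fold higher and 2 rose: NRP2 (39.2 in DE, 3.40 in hESC), a co-receptor for semaphorins and VEGF, and PLXNA2 (31.5 in DE, 1.14 in hESC), a semaphorin receptor. Of 34 cytokine and death receptors 7 were 2-fold higher, with LIFR at 21.4 in DE and 4.76 in hESC and IL6ST at 6.87 in DE and 2.35 in hESC.

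Of 201 measured transporters, 28 (13.9%) were 2-fold higher and 18 (8.96%) 2-fold lower, against 7.22% and 4.56% of all genes. The median difference was 0.00, and 2 rose. With at least 1 FPKM in both columns, 19 of 167 were 2-fold higher and 14 were 2-fold lower, against 5.8% and 3.31% of all genes. SLC40A1, ferroportin, the cell's iron exporter, rose to 24.2 FPKM in DE, against 0.637 in hESC. SLCO2A1, a prostaglandin transporter, rose to 17.2 in DE, against 0.501 in hESC. The iron stores FTH1 and FTL were at 309 and 1097 in DE, against 197 and 734 in hESC. SLC39A8, a zinc and manganese importer, was at 41.1 in DE and 11.6 in hESC. ATP7A, the copper pump, was listed at 65.9 in DE and 0 in hESC, an uncertain level.

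The glucose transporter SLC2A3 was at 1265 FPKM in DE and 249 in hESC, with q = 0.0595 in the authors' deposited table, and its near-identical neighbour SLC2A14 at 395 in DE and 84.0 in hESC; reads may be split between them. SLC5A9, a sodium-coupled carrier of mannose and other sugars, was at 29.6 in DE and 1.16 in hESC. SLC16A3, a lactate exporter, was at 63.9 in DE and 20.8 in hESC, while SLC16A1, of the same family, was at 139 in DE and 161 in hESC. Of 29 amino acid carriers 2 were 2-fold higher and 4 were 2-fold lower, the first close to the 7.22% of all genes. SLC7A5, a leucine exchanger, was at 330 in DE and 115 in hESC, and SLC7A3, an arginine carrier, at 42.9 in DE and 98.4 in hESC. Of 53 ion channels 8 were 2-fold higher and 4 were 2-fold lower, against 7.22% and 4.56% of all genes. The potassium channel subunit KCNG1 was at 69.8 in DE and 8.48 in hESC (q = 0.0512 in the authors' deposited table).

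**Figure D3:**
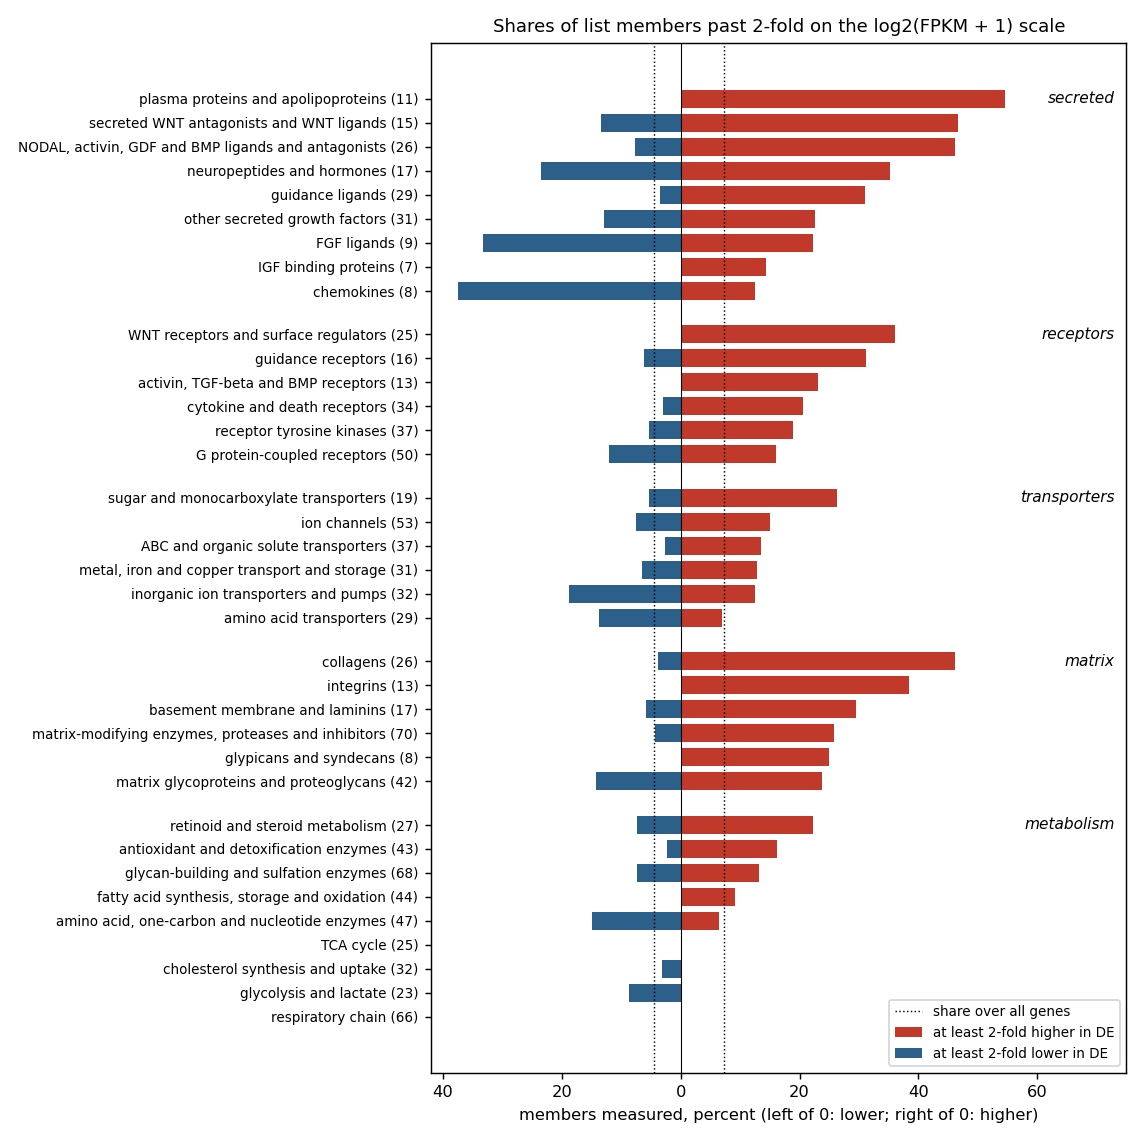
Share of the measured members of 36 gene lists (number of members in brackets) that were at least 2-fold higher in DE (red, to the right) or lower (blue, to the left), in percent; dotted lines give the shares over all genes, 7.22% and 4.56%. Collagens reach right at 12 of 26, chemokines and FGF ligands reach farther left than right, with 3 of 8 and 3 of 9 lower, and the TCA cycle and the respiratory chain have no bar.

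Of 176 measured matrix genes 52 (29.5%) were 2-fold higher and 11 (6.25%) 2-fold lower, and 9 rose. With at least 1 FPKM in both columns, 42 of 150 were 2-fold higher and 8 were 2-fold lower, against 5.8% and 3.31% of all genes. Of 26 collagens 12 were 2-fold higher and 1 was 2-fold lower. COL5A2 rose to 171 FPKM in DE, against 6.10 in hESC, and COL5A1 to 36.4 in DE, against 4.52 in hESC; together they form the fibrils of type V collagen. The basement membrane chains COL4A1 and COL4A2 were at 144 and 75.7 in DE, against 31.5 and 24.3 in hESC, and COL6A1 and COL6A2 at 126 and 70.6 in DE, against 49.2 and 29.0 in hESC. COL1A1, of fibrous type I collagen, was at 77.1 in DE and 103 in hESC.

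Glycoproteins and basement membrane parts gave further rises. FREM1, which anchors epithelia to their basement membrane, rose to 25.8 FPKM in DE, against 0.294 in hESC, FBN2, a fibrillin of elastic fibres, to 35.3 in DE, against 3.56 in hESC, and VWF, a clotting glycoprotein usually linked to endothelium, to 11.7 in DE, against 0.403 in hESC. Of the 7 measured endothelial and blood markers 2 were 2-fold higher, with SOX18 at 6.16 in DE and 0.947 in hESC, and the summed level of all 22 found was 104 in DE and 65.6 in hESC; the defining markers CDH5 and PECAM1 were at 0.0333 and 0.0175 in DE, against 0.0173 and 0.0278 in hESC. Their part in the level of VWF was not tested. Fibronectin, FN1, was at 130 in DE and 41.2 in hESC, and its receptor chain ITGA5 rose to 52.4 in DE, against 6.91 in hESC. ITGAV and ITGB5 were at 61.3 and 186 in DE, against 13.1 and 72.1 in hESC, and the common partner ITGB1 at 190 in DE and 146 in hESC.

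Enzymes that build and trim the matrix rose too. HAS2, which makes hyaluronan and is counted with glycan enzymes, rose to 82.1 FPKM in DE, against 4.74 in hESC. LEPREL1, a collagen prolyl hydroxylase, rose to 104 in DE, against 8.85 in hESC, ADAM19, a membrane protease, to 97.6 in DE, against 6.58 in hESC, and CPE, a carboxypeptidase of secretory granules, to 74.4 in DE, against 4.06 in hESC. Of 70 measured proteases, inhibitors and modifying enzymes 18 were 2-fold higher and 3 were 2-fold lower. SERPINE2, a protease inhibitor, was at 540 in DE and 110 in hESC with q = 0.0661 in the authors' deposited table, MMP2 at 34.9 in DE and 7.31 in hESC, and SULF2, which removes sulfate from heparan chains, at 34.0 in DE and 4.57 in hESC. A group of close copies of the cystatin family, chosen after their values were seen, was at 242 for CST1, 56.7 for CST4 and 50.9 for CST2 in DE, against 31.6, 7.30 and 6.91 in hESC; they may share reads, and none passed q.

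The cadherins differed from each other. CDH2, N-cadherin, rose to 247 FPKM in DE, against 17.9 in hESC, while CDH1, E-cadherin, was at 50.8 in DE and 77.1 in hESC. EPCAM, an epithelial adhesion protein, was at 195 in DE and 115 in hESC, and CLDN6, the main claudin, at 429 in DE and 481 in hESC. PCDH10, a protocadherin, was at 49.7 in DE and 5.12 in hESC, with q = 0.0512 in the authors' deposited table. SNAI1, a repressor of E-cadherin, was at 14.2 in DE and 6.51 in hESC, and SNAI2 at 0.317 in DE and 0.260 in hESC.

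Of 50 cytoskeletal genes 19 were 2-fold higher, 3 were 2-fold lower and 2 rose, against 7.22% and 4.56% of all genes by fold. Those that rose are known from heart: MYL7, the atrial regulatory myosin light chain, at 102 FPKM in DE and 2.28 in hESC, and MYL4, the atrial essential light chain, at 17.9 in DE and listed at 0 in hESC. Others that were 2-fold higher without passing q were the intermediate filaments KRT8 (353 in DE, 97.7 in hESC), KRT19 (328 in DE, 104 in hESC) and VIM (281 in DE, 78.3 in hESC) and the calcium binders S100A14 (66.1 in DE, 2.07 in hESC) and S100A16 (92.6 in DE, 6.63 in hESC). ACTB, an actin, was at 1603 in DE and 1585 in hESC.

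Metabolic enzymes were read in 9 lists. Of 375 measured, 29 (7.73%) were 2-fold higher and 18 (4.80%) 2-fold lower, close to the 7.22% and 4.56% of all genes, and 2 rose, CYP26A1 and HAS2. None of 66 respiratory chain genes and none of 25 TCA cycle genes was 2-fold different in either direction, with median differences of -0.10 for each. Of 23 measured glycolytic genes 21 lay within 2-fold: GAPDH was at 1108 FPKM in DE and 1172 in hESC, ALDOA at 612 in DE and 572 in hESC, and ENO1 at 1406 in DE and 792 in hESC, while HK2, a hexokinase, was at 7.28 in DE and 17.6 in hESC. Another 5 glycolytic genes (HK1, GPI, PKM, PKLR and LDHA) are among those set aside, and no direction is given for them.

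Cholesterol genes lay slightly above level. Of 32 measured genes none was 2-fold higher and 1 was 2-fold lower, with a median difference of 0.39, against 0.05 over all genes. MSMO1, an enzyme of the late steps, was at 315 FPKM in DE and 203 in hESC. Of 44 fatty acid genes 4 were 2-fold higher, a share near the 7.22% of all genes. ELOVL2, which lengthens polyunsaturated chains, was at 25.1 in DE and 2.12 in hESC with q = 0.0595 in the authors' deposited table. ACOX3, of peroxisomal oxidation, was at 68.7 in DE and 4.12 in hESC, SCD5 at 6.11 in DE and 0.485 in hESC, and FADS2 at 342 in DE and 167 in hESC. The ACOX3 locus is 116.7 kb long in the DE table, against 75.3 to 75.9 kb in the others.

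Amino acid and one-carbon enzymes lay below level, with 3 of 47 2-fold higher, 7 2-fold lower and a median of -0.34. Over all genes 7.22% were 2-fold higher, close to the share here, and 4.56% were 2-fold lower. IDO1, which opens the ring of tryptophan, was at 0.588 FPKM in DE and 16.5 in hESC. GLDC, the glycine cleavage enzyme, was at 11.1 in DE and 37.1 in hESC, PRODH, of proline breakdown, at 14.5 in DE and 65.7 in hESC, and MTHFD2, of mitochondrial folate, at 55.0 in DE and 118 in hESC. AASS, of lysine breakdown, chosen after its values were seen, was at 45.3 in DE and 216 in hESC. GATM, the first enzyme of creatine synthesis, went the other way, with 61.4 in DE and 11.9 in hESC. None of these passed q.

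Of 27 measured retinoid and steroid genes 6 were 2-fold higher, 2 were 2-fold lower and 1 rose, against 7.22% and 4.56% of all genes by fold. The levels of 4 of the 27 were uncertain, and without these 3 were 2-fold higher and 2 were 2-fold lower. CYP26A1, which breaks down retinoic acid, rose to 353 FPKM in DE, against 4.28 in hESC, a difference of 6.07. DHRS3, which reduces retinal back to retinol, was at 4.13 in DE and 27.4 in hESC. The binding proteins CRABP1 and CRABP2 were at 94.9 and 139 in DE, against 94.8 and 155 in hESC, and the receptor RXRA at 22.5 in DE and 9.14 in hESC. Among detoxifying enzymes MGST2, a glutathione transferase of lipid mediators, was at 156 in DE and 7.72 in hESC, but its locus covers 488 kb and q was 0.999 in the authors' deposited table. NQO1, a quinone reductase, was at 52.1 in DE and 17.7 in hESC.

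Of 23 ERK feedback genes 9 were 2-fold higher and 3 were 2-fold lower, against 7.22% and 4.56% of all genes. DUSP4, a phosphatase of ERK, rose to 53.6 FPKM in DE, against 1.15 in hESC, and its relatives DUSP5 and DUSP6 were at 45.8 and 20.9 in DE, against 4.75 and 1.98 in hESC. SPRY2 and SPRY4, brakes on receptor kinases, were at 59.97 and 39.5 in DE, against 22.2 and 14.5 in hESC. The immediate-early factor EGR1 was lower, with 4.67 in DE and 21.6 in hESC, as was CCND1, with 47.2 in DE and 106 in hESC. Of 19 NODAL and activin responsive genes 7 were 2-fold higher and none was 2-fold lower, against the same shares. The list held 20 found genes, and 1 of them was set aside for its conflicting values and is not counted. The inhibitory SMAD6 and SMAD7 were at 34.2 and 29.1 in DE, against 4.21 and 9.07 in hESC. Of 30 FOXO and insulin genes 2 were 2-fold higher and 5 were 2-fold lower, with a median of -0.41; the 2 higher ones are a share close to the 7.22% of all genes. SESN3, a sestrin, was at 8.62 in DE and 24.0 in hESC.

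Genes of undifferentiated cells were lower in part. Of 33 measured, 12 were 2-fold lower (11 without uncertain levels), 2 were 2-fold higher, none fell by q, and the median was -0.71. Over all genes 4.56% were 2-fold lower and 7.22% 2-fold higher, with a median of 0.05. NANOG is among the genes set aside and is not counted in the 33. The summed level of all 36 found, NANOG included, was 2651 FPKM in DE and 4764 in hESC. SOX2 was at 60.9 in DE and 238 in hESC, DNMT3B, a DNA methyltransferase, at 250 in DE and 834 in hESC, and PRDM14 at 12.2 in DE and 73.6 in hESC. POU5F1 was listed at 29.7 in DE and 232 in hESC, an uncertain level because of its statistic, and it has processed copies that may share reads. DPPA5 and UTF1 stood lowest relative to hESC, with 4.23 and 2.14 in DE, against 80.7 and 24.3 in hESC. LIN28A and L1TD1, RNA-binding proteins, were at 260 and 101 in DE, against 406 and 138 in hESC. ZIC2 rose to 118 in DE, against 16.01 in hESC, although it is listed with these genes.

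**Figure D4:**
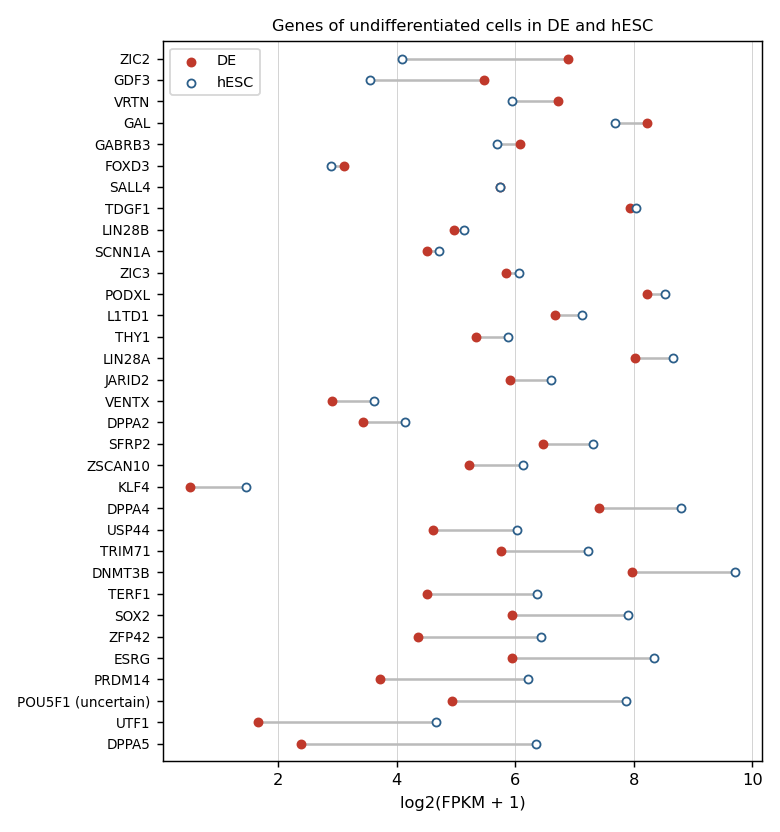
Levels of 33 genes of undifferentiated cells in DE (filled circles) and hESC (open circles) as log2(FPKM + 1), sorted by difference. ZIC2 and GDF3 at the top are higher in DE, the middle rows lie close together, and DPPA5 and UTF1 at the bottom have the widest gap.

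Some genes outside that list were also far lower. HES3, a repressor of the HES family, was at 1.00 FPKM in DE and 35.8 in hESC with q = 0.0996 in the authors' deposited table. LECT1, a cartilage protein, and NPTX1, a neuronal pentraxin, both chosen after their values were seen, were at 6.13 and 0.359 in DE, against 68.8 and 9.42 in hESC. CDKN1A, the p21 inhibitor of the cell cycle, was at 11.4 in DE and 66.8 in hESC with q = 0.0974 in the authors' deposited table, but its hESC level spanned 33.0 to 66.8 over the 4 tables. Of 37 measured cell cycle genes 1 was 2-fold higher and 2 were 2-fold lower, with a median of -0.26. The lower share is close to the 4.56% of all genes, and the higher share lies under their 7.22%.

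Markers of 6 other cell types were read for their whole lists. Members under 1 FPKM in hESC passed the minimum only by being higher in DE. Over all genes 7.22% were 2-fold higher and 4.56% 2-fold lower. Of 31 mesoderm and heart markers found, 13 reached 1 FPKM, and 5 of the 13 lay under 1 FPKM in hESC. The summed level of all 31 was 161 FPKM in DE and 42.5 in hESC, of which MYL7 made up 102 in DE. Of the 13 measured, 5 were 2-fold higher and 2 were 2-fold lower. Besides MYL7 and T (brachyury), the higher ones were TBX20 at 2.75 in DE and 0.109 in hESC, FOXC1 at 3.31 in DE and 0.201 in hESC, and ACTC1 at 14.6 in DE and 6.401 in hESC. TNNT2 was at 1.23 in DE and 4.32 in hESC, and ACTA2 at 0.523 in DE and 2.19 in hESC. Among markers that did not pass the minimum, TBX5, TCF21, OSR1 and MEOX1 were listed at 0 in DE, MESP1 was at 0.473 in DE and 0.335 in hESC, and HAND1 was at 0.646 in DE and 0.142 in hESC. Of 20 primitive and visceral endoderm markers found 13 reached 1 FPKM, and 3 of the 13 lay under 1 FPKM in hESC. Of the 13, 6 were 2-fold higher and 1 was 2-fold lower. Their median difference was 0.78 (0.99 without uncertain levels), against 0.05 over all genes. Summed levels were 547 in DE and 233 in hESC, and most of that sum is SPARC and COL4A1, which the matrix lists share. TTR was listed at 0 and AFP, SOX7 and LRP2 were below 1 in DE. Endothelial and blood markers summed to 104 in DE and 65.6 in hESC (7 of 22 measured, 2 of them 2-fold higher), with PECAM1, CDH5, CD34 and PTPRC below 1 FPKM in DE. Whether other cells contribute to MYL7, VWF or HHEX was not tested.

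Trophoblast and amnion markers summed to 83.1 FPKM in DE and 103 in hESC (9 of 24 found were measured, 2 of them 2-fold higher and 2 lower), with GATA3 at 6.92 in DE and 0.244 in hESC and CDX2, TFAP2A and KRT7 below 1 in DE. Neural progenitor markers summed to 133 in DE and 149 in hESC, mostly NES, FABP7 and SOX11. Of 27 found 11 were measured, and 5 of the 11 lay under 1 FPKM in hESC and passed only by being higher in DE. Of the 11, 4 were 2-fold higher (3 without uncertain levels) and 1 was 2-fold lower. SOX1 and HES5 were below 1 in DE, while PAX6 was at 2.25 in DE and 0.251 in hESC. Neural crest markers summed to 98.7 in DE and 91.8 in hESC (9 of 18 measured, 1 of them 2-fold higher and 2 lower), with TFAP2B and ZIC1 listed at 0 in DE. SOX10 was at 5.62 in DE and 2.48 in hESC.

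The same genes were read in the other 3 derivatives, each against the hESC column of its own table: MESO, NPC and NCSC. MESO is splanchnic mesoderm, grown for 4 days in the hESC medium with BMP-4 (100 ng/mL) and Wnt-3a (25 ng/mL) added. NPC are neural progenitors, grown for 6 days from 90000 cells per cm2 with IGF-I, heregulin and the inhibitors SB431542 and LDN, and NCSC are pre-neural crest cells, grown likewise but with FGF, IGF-I, heregulin, SB431542 and BIO. The comparisons share their hESC libraries and scales were not matched, so values stand side by side with no test. EOMES was at 158 FPKM in DE, 1.07 in MESO, 0.0147 in NPC and 0.0138 in NCSC, and SOX17 at 141 in DE, 2.08 in MESO and listed at 0 in NPC and NCSC. FGF17 was at 916 in DE, 0.681 in MESO, 0.217 in NPC and 8.24 in NCSC, and LEFTY1 at 682 in DE and under 1 in the others. ERBB4 was at 41.0 in DE, 1.09 in MESO, 0.175 in NPC and 0.00958 in NCSC, and CYP26A1 at 353 in DE, 0.882 in MESO, 0.133 in NPC and 0.422 in NCSC.

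Other genes that rose in DE were at like or higher levels elsewhere. GATA4 was at 56.1 FPKM in DE and 49.3 in MESO, SLC40A1 at 24.2 in DE and 65.1 in MESO, SLCO2A1 at 17.2 in DE and 39.4 in MESO, and COL5A1 at 36.4 in DE and 93.2 in MESO. CCKBR was at 103 in DE and 80.4 in MESO. FRZB was at 43.1 in DE and 60.8 in NPC, SFRP1 at 176 in DE and 189 in NPC, and OTX2 at 177 in DE and 153 in NPC. ZIC2 was at 118 in DE, 90.3 in NPC and 123 in NCSC, and 0.885 in MESO.

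**Figure D5:**
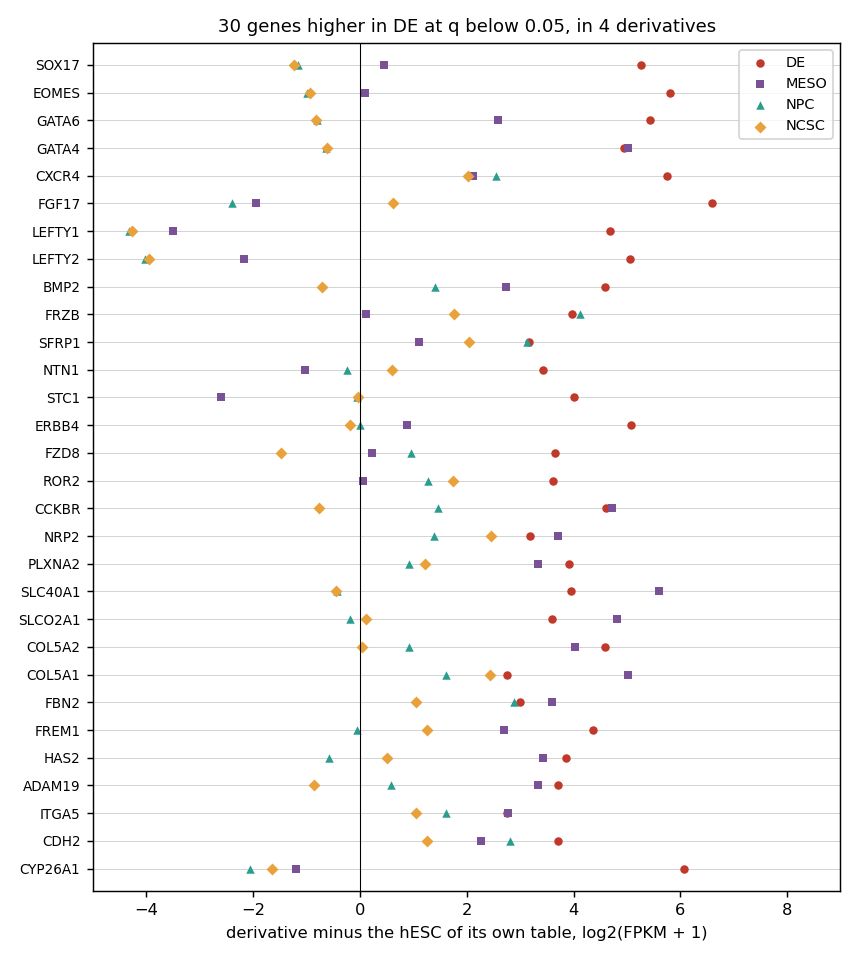
Differences of 30 genes that rose in DE, for 4 derivatives, each minus the hESC column of its own table on the log2(FPKM + 1) scale; red circles are DE, squares MESO, triangles NPC and diamonds NCSC. For EOMES, FGF17, LEFTY1 and CYP26A1 the DE circle stands alone on the right, while for GATA4, CCKBR and SLC40A1 the MESO square lies beside it or farther right.

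Of the 58 loci that rose, 18 were on none of the lists, and several act inside the cell or at its surface. RHOBTB3, a protein of vesicle traffic, was at 120 FPKM in DE and 2.66 in hESC. COLEC12, a scavenger receptor, was at 78.2 in DE and 2.05 in hESC, and LRIG3, a membrane regulator of growth factor receptors, at 75.7 in DE and 2.89 in hESC. DACT2, which in zebrafish promotes the breakdown of NODAL receptors, was at 28.3 in DE and 1.11 in hESC, and PREX1, an activator of Rac, at 30.9 in DE and 3.93 in hESC. IER3, an early survival gene, was at 59.6 in DE and 4.77 in hESC, TMEM123, a mucin-like surface protein, at 170 in DE and 26.2 in hESC, and ENC1, an actin-binding adaptor, at 28.0 in DE and 2.45 in hESC. AHNAK, a giant scaffold, was at 24.9 in DE and 3.67 in hESC, TNRC18 at 27.3 in DE and 3.96 in hESC, and NPAP1 at 12.9 in DE and 0.509 in hESC. The NPAP1 locus is 22.1 kb long in the DE table and 8.1 kb in the others. LYPD2, MSMB and GYPE were at 6.44, 4.92 and 2.47 in DE, all listed at 0 in hESC; GYPE has near-identical copies and may share their reads. Just outside the threshold, and chosen after their values were seen, NFKBIA and CFLAR, brakes on NF-kappaB and on death receptors, were at 110 and 63.3 in DE, against 9.79 and 5.10 in hESC, with q = 0.0661 and q = 0.0909 in the authors' deposited table.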

How the data were processed

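Per the labels, 10 libraries were made from poly(A) RNA. Cufflinks 2.2.1, featureCounts, TopHat2 2.0.13, Subread 1.5.2 and the build hg19 appear in the submitters' processing notes with no role or order, and how libraries were scaled is not given in the sources used here. For each gene the authors deposited 1 FPKM value for DE and 1 for hESC, so the libraries had been combined. The deposited test statistic is a signed score, and the p-value and q-value beside it are also the authors'; the lowest p-value is 5e-05 and the lowest q-value 0.0186. A deposited column of log2 fold changes was not used.

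Rows on chromosomes 1 to 22 and X were kept, and of several rows of 1 symbol (257 symbols) that of the highest mean FPKM. Of all symbols, 18 were set aside, because in at least 1 of the 4 derivative tables FPKM ratio and statistic had opposite signs, a value had more than 6 digits, or, at a mean of at least 20 FPKM, the log2 ratio over the statistic was under 0.4 of the table's median. A level was called uncertain where q was not below 0.05 and the statistic was missing or under the log2 ratio divided by 2. A pseudocount of 1 FPKM was used. No test was run here, since no values per library were given, and the only test is the authors' q. The depth per library is unknown.

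Members of 54 gene lists (2015 symbols, of which 1962 were found, 6 of them under another symbol, and 48 more lay in merged loci) were counted by fold and by q. The members and lists were chosen with earlier results of these data known. Genes were named by a rule: every gene with q below 0.05, the 25 highest and 25 lowest differences, the 4 highest, 3 lowest and 2 most abundant of each list, and the defining markers with POU5F1 and SOX2; not all are printed, and any gene printed outside it was chosen after its values were seen. Alternatives were other pseudocounts and minimums, quantile normalization, hESC values from the other 3 tables, all deposited rows, and normal p-values from the score; added after the data were seen were leaving out uncertain levels, another choice of row per symbol, keeping the conflicting values, and a minimum in both columns. Some items are not reported here by name. The fold rule and the adjustment were tested on simulated data. Python 3.11.15, pandas 2.3.3, numpy 2.4.6, scipy 1.17.1 and matplotlib 3.10.9 were used.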

Additional observations from a re-analysis of the deposited data

How the results depend on the processing

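No paired analysis was possible because the deposited table holds 1 combined value per cell type, and leaving out a replicate could not be run for the same reason. The number of genes 2-fold higher in DE, 967 as reported, ranged from 498 with a pseudocount of 5 FPKM to 1295 with a pseudocount of 0.1 FPKM. The number 2-fold lower, 611 as reported, was 1027 with a pseudocount of 0.1 FPKM, 209 with a pseudocount of 5 FPKM, 402 with a minimum of 5 FPKM and 403 with at least 1 FPKM in both columns, the last chosen after seeing the data; under the other settings run, both counts stayed within 1.5 times. When p-values were taken from a normal curve at the authors' statistic, 163 genes were higher and 19 lower, against 58 and 1 by the deposited q, and with no minimum 3 were lower by q. The median of all genes was -0.05 after quantile normalization and 0.05 as reported. Of 314 named genes past 2-fold, all kept their direction with either pseudocount and with quantile normalization, 223 stayed past 2-fold with a pseudocount of 5 FPKM, and 299 of 300 kept their direction when hESC levels came from the other 3 tables; the exception was MT2A, a metallothionein, at 1.14 as reported and -1.33 there, and the cause was not tested. Read depth is unknown, so no limit of detection can be given.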
